A study of Mus musculus with 8 samples.

Results

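The genes described here are the laminin chains and integrin subunits of the postnatal mouse cochlea, 37 of the 36536 genes with counts. They were picked by a rule on names, applied to the symbols of protein-coding genes in the NCBIM37 (mm9) annotation. It takes each numbered laminin alpha, beta or gamma chain (*Lama*, *Lamb* or *Lamc*) and each integrin alpha or beta subunit (*Itga* or *Itgb*). The rule found 11 laminin chains, 18 integrin alpha subunits and 8 integrin beta subunits. No measured value entered the rule, but the genes and lists were chosen with earlier results of these data known.

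Libraries were made from cells of freshly dissociated cochleas, sorted without culture or treatment, from *Lfng-EGFP* BAC transgenic mice (B6;FVB-Tg(Lfng-EGFP)HM340Gsat/Mmucd) at postnatal day 1 (P1) and postnatal day 6 (P6). All animals carried the transgene, in which GFP follows the regulatory region of *Lfng*, and GFP is seen in border, inner phalangeal, outer pillar and Deiters' cells but not in inner pillar cells. At each age the cells with the brightest GFP signal (GFP+) and the GFP- cells were collected in duplicate, each library from cells pooled over many cochleas, which gave 4 groups of 2 libraries. The 2 ages were compared to follow supporting cells as they mature. The GFP- group is a mixture of other dissociated cochlear cells, without those of low but detectable GFP, which were not sorted into either group, and the tissues beside the organ of Corti (Reissner's membrane, the stria vascularis and the lateral wall) were taken off at P1 but only in part at P6. Nothing in the labels says whether the replicates came from separate sets of animals, so p-values measure only the spread between these libraries, which may be technical.

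Laminins are secreted trimers of an alpha, a beta and a gamma chain, and they form the sheet of the basement membrane on which epithelial cells, endothelium, Schwann cells and muscle rest. Integrins are cell surface receptors made of an alpha and a beta subunit, and the pairing sets whether a cell binds laminin, collagen, the RGD motif of fibronectin and vitronectin, or proteins on other cells. In the cochlea the organ of Corti and the cells that flank it sit on a basement membrane, with mesenchyme, vessels and nerve beneath.

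Levels are given in CPM, the counts of a gene once all counts on genes in that library, which numbered 17769024 to 67695039, are scaled to 1000000. A level that is compared between genes is given as CPM per kilobase of summed exon length. The 37 genes took 0.437% and 0.431% of gene counts in the P1 GFP+ libraries and 0.268% and 0.391% at P6, against 0.582% and 0.571% in P1 GFP- and 0.678% and 0.637% in P6 GFP- libraries. The levels in the P6 GFP+ replicates differed most. Of the 9 supporting cell markers checked, 8 were higher in GFP+ than in GFP- cells at each age. Of 8 hair cell markers, 6 were also higher in GFP+ cells at each age. Among all genes, 25.5% were higher at P1 and 15.5% at P6. Markers of other cochlear cells were lower in GFP+ cells at P1 for most of each list, with 6 of 7 for Schwann cells, 4 of 5 for smooth muscle and pericytes, 4 of 4 for melanocytes, 5 of 5 for neurons and 2 of 3 for megakaryocytes, and at P6 0, 4, 3, 1 and 2 were lower in the same order, where 28.1% of all genes were lower at P1 and 17.9% at P6. They were present in the P6 GFP+ libraries, and more so in replicate 2. The summed CPM of the 8 endothelial markers was 84.2 in P6 GFP+ replicate 1 and 299 in replicate 2, against 363 and 362 in the P6 GFP- and 36.2 and 31.2 in the P1 GFP+ libraries. Genes that were at least 16-fold higher in P1 GFP- cells (773 genes) were higher in P6 GFP+ replicate 2 than in replicate 1 by a median of 1.60 on the log2 scale. The part of this difference in the results below was not tested. Fits without P6 GFP+ replicate 2 are given for some results only. A P6 fold change given without such a fit can depend on that library too, and both replicate levels should be read beside it.

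Each comparison was tested over all genes with edgeR's quasi-likelihood test on the TMM-scaled counts of its 4 libraries, and a gene was called when its Benjamini-Hochberg adjusted p was below 0.05. A fold change below is the one fitted by edgeR, given on the log2 scale with its standard error. At P1, 8 of the 35 laminin and integrin genes tested were higher in GFP+ cells (22.9%, against 25.5% of all genes tested) and 20 were lower (57.1%, against 28.1% of all genes). At P6, 5 of 36 were higher in GFP+ cells (13.9%, against 15.5% of all genes) and 19 were lower (52.8%, against 17.9%). The counts of higher genes were thus near those of genes at large, while lower genes made up a larger share than among all genes, and the median log2 difference was -1.64 at P1 and -0.97 at P6 against 0.01 and -0.02 over all genes. With age, 8 of 35 rose in GFP+ cells (22.9%, against 12.1% of all genes) and 6 fell (17.1%, against 8.31%). In GFP- cells 15 of 36 rose (41.7%, against 11.3%) and 2 fell (5.56%, against 7.87%). When the counts were scaled to library totals instead of TMM, which moved the median of all genes by -0.19 in this comparison, 10 rose and 7 fell. The fraction ratio, GFP+ over GFP-, was higher at P6 than at P1 for 2 of 36 genes (5.56%, against 3.6% of all genes) and lower for 5 (13.9%, against 2.79%). *Itgad*, a leukocyte alpha subunit, was under the filter on low counts in every comparison, and *Itgax*, another one, in the P1 comparison and in that of GFP+ cells with age. In bulk RNA a lower value can come from fewer cells of a type or from less RNA per cell, and these cannot be told apart.

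**Figure D1:**
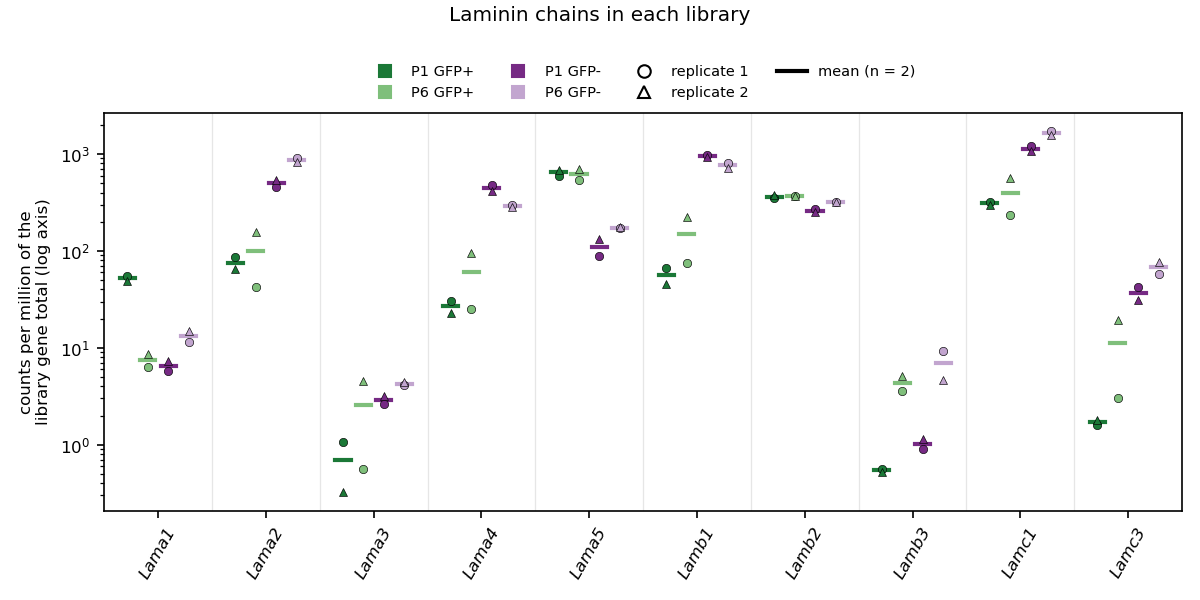
CPM of 10 of the 11 laminin chains in the 8 libraries, on a log axis. Colours mark the 4 groups, symbols the 2 replicates and bars the group mean (n = 2); *Lama5* and *Lamb2* stood at like levels at both ages in GFP+ cells, *Lama1* was high in P1 GFP+ cells only, and the P6 GFP+ replicates lay far apart for *Lama2*, *Lama4*, *Lamb1*, *Lamc1* and *Lamc3*.

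Among the laminin alpha chains, GFP+ cells were marked by *Lama5* at both ages and by *Lama1* at P1 only, while *Lama2* and *Lama4* were the chains of the GFP- cells. *Lama5* encodes the alpha chain found widely in epithelial and vascular basement membranes (chr2:179911078-179960564, minus strand, NCBIM37). It was at 598 and 692 CPM in the P1 GFP+ libraries, 542 and 704 in P6 GFP+, 88.4 and 133 in P1 GFP- and 171 and 178 in P6 GFP- libraries. Every GFP+ library was thus above every GFP- library. *Lama5* was 6.24-fold higher in GFP+ cells at P1 (log2 2.64 ± 0.21, adjusted p = 0.000176) and 3.55-fold higher at P6 (log2 1.83 ± 0.21, adjusted p = 0.00347). Between the ages it was level in GFP+ cells (log2 0.04 ± 0.18, adjusted p = 0.889) and rose in GFP- cells (log2 0.84 ± 0.19, adjusted p = 0.023). The call of this rise was lost with library totals and without either P6 GFP- library.

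*Lama1*, the alpha chain of the laminin of early embryonic basement membranes (chr17:68046605-68171985, plus strand), was at 55.5 and 49.0 CPM in the P1 GFP+ libraries. It was at 6.30 and 8.70 CPM in P6 GFP+, 5.75 and 7.32 in P1 GFP- and 11.6 and 15.0 in P6 GFP- libraries. The P1 GFP+ libraries stood above all others, and the order of the fractions was opposite at the 2 ages without overlap of the replicates. *Lama1* was 8.57-fold higher in GFP+ cells at P1 (log2 3.10 ± 0.16, adjusted p = 4.26e-05) and did not pass the test at P6 (log2 -0.83 ± 0.26, adjusted p = 0.0582). Without P6 GFP+ replicate 1 or replicate 2 the P6 difference was -0.58 or -1.05. From P1 to P6 *Lama1* fell 6.52-fold in GFP+ cells (log2 -2.70 ± 0.20, adjusted p = 0.00297) and rose 2.31-fold in GFP- cells (log2 1.21 ± 0.21, adjusted p = 0.00943). The rise in GFP- cells missed the threshold without P6 GFP- replicate 2 (log2 1.06, adjusted p = 0.0767). The difference between the ages in the fraction ratio was -3.93 ± 0.30 on the log2 scale (adjusted p = 0.000731), the largest in size among the 36 genes tested.

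*Lama2*, the alpha chain of muscle and Schwann cell basement membranes, was at 85.9 and 65.2 CPM in P1 GFP+, 460 and 543 in P1 GFP-, 42.1 and 157 in P6 GFP+ and 911 and 821 in P6 GFP- libraries. *Lama4*, the alpha chain of vascular basement membranes, was at 30.6 and 22.9 CPM in P1 GFP+, 484 and 415 in P1 GFP-, 25.0 and 94.8 in P6 GFP+ and 301 and 284 in P6 GFP- libraries. Both were low in every GFP+ library and high in every GFP- library. In GFP+ cells *Lama2* was 6.15-fold lower at P1 (log2 -2.62 ± 0.18, adjusted p = 0.000105) and 8.82-fold lower at P6 (log2 -3.14 ± 0.61, adjusted p = 0.0142), and *Lama4* was 15.5-fold lower at P1 and 4.93-fold lower at P6. The markers of mesenchyme were lower in GFP+ cells too, 8 of 8 at P1 and 7 of 8 at P6. Their summed level was 486 to 538 CPM in P1 GFP+, 1791 and 3596 in P6 GFP+ and 14159 to 19310 CPM in GFP- libraries. In GFP- libraries this sum was higher at P6 than at P1, while *Lama4* was lower at P6. Endothelial markers were lower in GFP+ cells for 8 of 8 at P1 and 1 of 8 at P6. Of all genes, 28.1% were lower at P1 and 17.9% at P6. With age *Lama2* rose in GFP- cells (log2 0.98 ± 0.15, adjusted p = 0.00658), and in GFP+ cells its change turned with the library used, from 0.47 ± 0.57 with both P6 replicates to -0.73 without replicate 2 and 1.11 without replicate 1. *Lama3*, the alpha chain of the anchoring laminin of skin, was low throughout at 0.321 to 4.52 CPM and reached 8.03 times the level in P6 GFP+ replicate 2 that it had in replicate 1.

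Among the beta chains *Lamb2* was the main chain of GFP+ cells and *Lamb1* that of GFP- cells. *Lamb2*, the beta chain of many adult basement membranes including those at synapses, varied little between libraries. It was at 350.1 and 376 CPM in P1 GFP+, 366 and 366 in P6 GFP+, 269 and 252 in P1 GFP- and 319 and 319 in P6 GFP- libraries. The difference between fractions was small at P1 (log2 0.58 ± 0.09, adjusted p = 0.00314) and did not pass the test at P6 (log2 0.19 ± 0.17, adjusted p = 0.441). *Lamb1*, the beta chain of most embryonic laminins, was at 66.7 and 45.7 CPM in P1 GFP+, 988 and 938 in P1 GFP-, 75.9 and 222 in P6 GFP+ and 804 and 725 in P6 GFP- libraries. It was 15.8-fold lower in GFP+ cells at P1 (log2 -3.99 ± 0.22, adjusted p = 5.18e-05) and 5.19-fold lower at P6 (log2 -2.38 ± 0.50, adjusted p = 0.0178). *Lamb3*, which joins *Lama3* in the anchoring laminin, rose in both fractions. It was at 0.567 and 0.522 CPM in P1 GFP+, 3.60 and 5.16 in P6 GFP+, 0.897 and 1.16 in P1 GFP- and 9.24 and 4.64 in P6 GFP- libraries. The rise was 8.46-fold in GFP+ cells (log2 3.08 ± 0.35, adjusted p = 0.00701) and 7.68-fold in GFP- cells (log2 2.94 ± 0.41, adjusted p = 0.00438), and the fractions did not differ at either age by the test. Without P1 GFP+ replicate 2 the rise in GFP+ cells was 3.00 with an adjusted p of 0.0578.

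*Lamc1*, the gamma chain of most laminins, was at 323 and 301 CPM in P1 GFP+, 1205 and 1075 in P1 GFP-, 233 and 566 in P6 GFP+ and 1715 and 1556 in P6 GFP- libraries, lower in GFP+ cells at P1 (log2 -1.76 ± 0.12, adjusted p = 0.000115) and at P6 (log2 -2.05 ± 0.44, adjusted p = 0.0186). *Lamc3*, a gamma chain of peripheral nerve and other tissues, was at 1.59 and 1.81 CPM in P1 GFP+, 42.2 and 30.9 in P1 GFP-, 3.04 and 19.2 in P6 GFP+ and 58.3 and 77.1 in P6 GFP- libraries. It was 20.1-fold lower in GFP+ cells at P1 (log2 -4.33 ± 0.22, adjusted p = 3.76e-05) and 6.05-fold lower at P6 (log2 -2.60 ± 0.75, adjusted p = 0.0444). The P6 call was lost with library totals, with the DESeq2 test and without either P6 GFP- library.

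**Figure D2:**
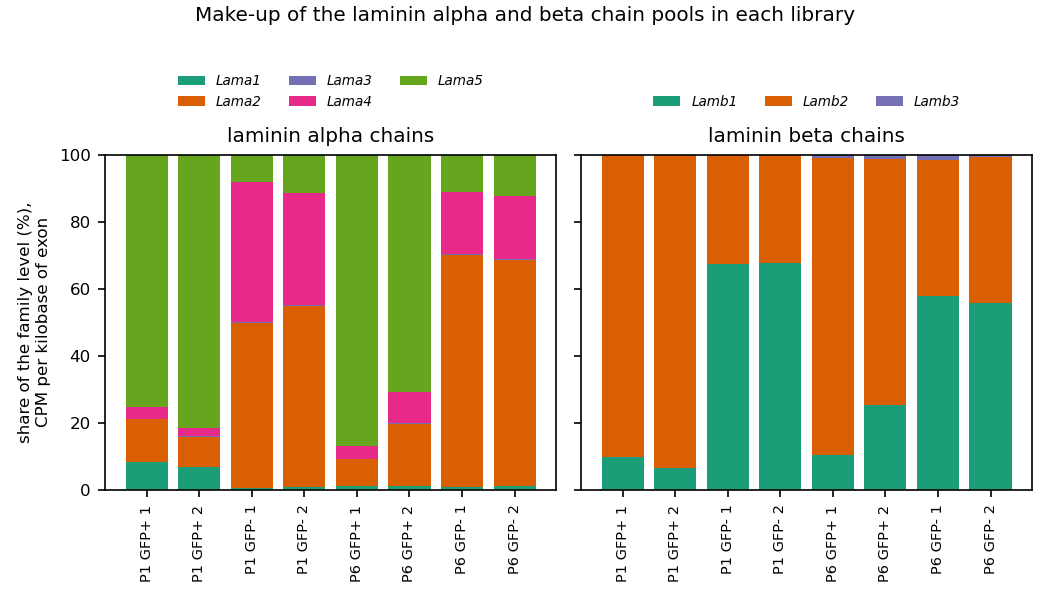
Share of each alpha and beta chain in the summed level of its laminin family in each of the 8 libraries, in percent of CPM per kilobase of exon. In GFP+ libraries *Lama5* and *Lamb2* filled most of the alpha and beta bars, and in GFP- libraries *Lama2* with *Lama4* and *Lamb1* did.

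The make-up of the laminin message differed between the fractions at both ages. Per kilobase of exon, *Lama5* made up 75.2% and 81.5% of the alpha chain level in the P1 GFP+ libraries and 87.0% and 70.9% at P6, against 8.07% to 12.4% in the 4 GFP- libraries. *Lama2* and *Lama4* made up 49.3% and 41.8% in P1 GFP- replicate 1, and 69.3% and 18.4% in P6 GFP- replicate 1. *Lamb2* made up 73.4% to 93.4% of the beta chain level in GFP+ libraries and *Lamb1* 55.8% to 67.8% in GFP- libraries. The lowest *Lama5* and *Lamb2* shares among GFP+ libraries were in P6 GFP+ replicate 2, where *Lama2* (18.5%), *Lama4* (9.03%) and *Lamb1* (25.2%) were at their highest among those libraries. The level of *Lama1* within its family was 8.37% and 6.91% in P1 GFP+ libraries and at most 1.25% elsewhere.

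The stretches before the annotated start of *Lama5* and of the integrin genes *Itga8* and *Itgb5* are shown because *Lama5* was the leading alpha chain of GFP+ cells and the other pair fell there between the ages, as described below. They are the 250 bases before the RefSeq start in build GRCm38.p6, a later build than the one used for counting, each written 5′ to 3′ on the gene's strand. Capitals mark the GC box letters GGGCGG on either strand, and TATAAA was also searched on both strands.
Lama5: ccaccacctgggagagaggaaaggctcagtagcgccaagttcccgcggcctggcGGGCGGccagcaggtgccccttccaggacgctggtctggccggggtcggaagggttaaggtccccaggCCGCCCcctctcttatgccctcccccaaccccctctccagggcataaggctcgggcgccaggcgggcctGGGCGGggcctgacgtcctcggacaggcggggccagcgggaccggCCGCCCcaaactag
Itga8: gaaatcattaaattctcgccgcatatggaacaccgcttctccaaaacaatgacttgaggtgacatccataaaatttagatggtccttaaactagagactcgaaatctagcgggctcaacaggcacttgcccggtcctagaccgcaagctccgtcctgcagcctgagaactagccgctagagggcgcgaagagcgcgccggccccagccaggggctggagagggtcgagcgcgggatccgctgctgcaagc
Itgb5: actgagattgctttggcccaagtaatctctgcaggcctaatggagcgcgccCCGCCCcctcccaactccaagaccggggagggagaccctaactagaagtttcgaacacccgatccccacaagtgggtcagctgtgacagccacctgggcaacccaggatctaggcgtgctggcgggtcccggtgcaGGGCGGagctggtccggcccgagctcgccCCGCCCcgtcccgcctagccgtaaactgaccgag
The windows are chr2:180225860-180226109 (minus strand) for *Lama5*, chr2:12301945-12302194 (minus strand) for *Itga8* and chr16:33829415-33829664 (plus strand) for *Itgb5*. *Lama5* held 4 GC boxes in 72.4% GC, *Itgb5* held 3 in 65.2% GC and *Itga8* held 0 in 56.4% GC, where the median over all windows was 52.4% GC. The GC box letters were in 32.7% of 32851 such windows and in 9 of the 26 windows of the 23 laminin and integrin genes with an entry (34.6%). The letters TATAAA were in 12.4% of all windows and in 0 of these 26, and a match or its absence describes these letters only.

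**Figure D3:**
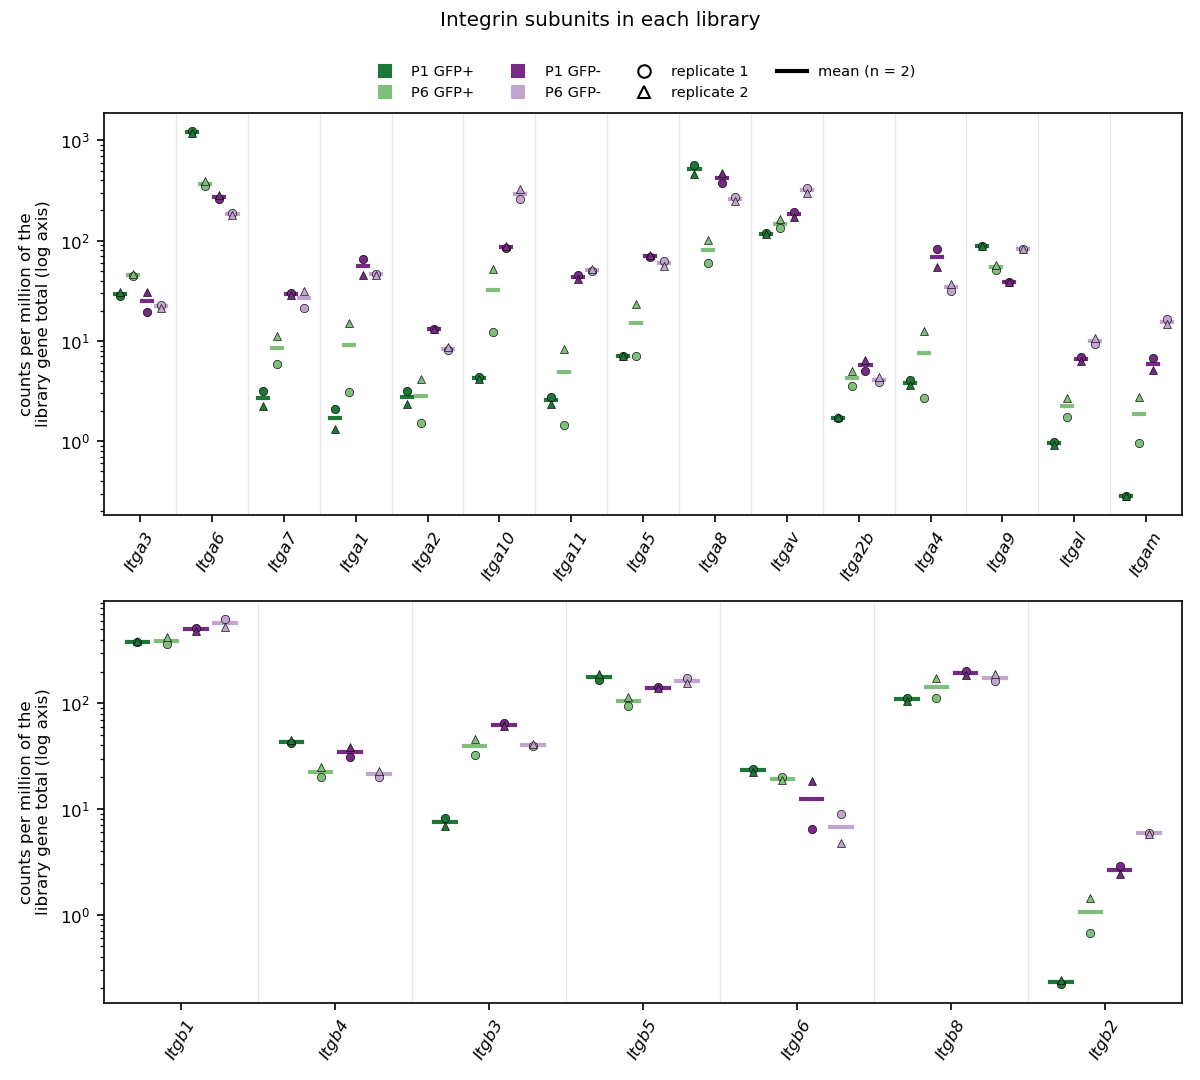
CPM of 15 integrin alpha subunits (top) and 7 beta subunits (bottom) in the 8 libraries, on log axes, with colours for the 4 groups, symbols for the 2 replicates and bars for the mean (n = 2). *Itga6* was highest in P1 GFP+ cells, *Itga8* dropped to its lowest in P6 GFP+ cells, and *Itgb3* was low in P1 GFP+ cells only.

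Of the laminin-binding integrins, *Itga6* was high in GFP+ cells and fell there with age, as did its beta partner *Itgb4*, while its other partner *Itgb1* was called in no comparison. *Itga6* (chr2:71583673-71696473, plus strand) pairs with *Itgb1* or *Itgb4*, and it was the most abundant of the 18 alpha subunits in all 4 GFP+ libraries per exon length, with 55.0% and 57.7% of the alpha subunit level at P1 and 47.7% and 38.3% at P6. It was at 1224 and 1192 CPM in P1 GFP+, 351 and 391 in P6 GFP+, 258 and 282 in P1 GFP- and 190.0 and 182 in P6 GFP- libraries. The 4 groups did not overlap. *Itga6* was 4.81-fold higher in GFP+ cells at P1 (log2 2.27 ± 0.11, adjusted p = 3.63e-05) and 1.99-fold higher at P6 (log2 0.99 ± 0.17, adjusted p = 0.011). It fell 3.06-fold in GFP+ cells (log2 -1.61 ± 0.15, adjusted p = 0.00457) and by less in GFP- cells, where the test was not passed (log2 -0.35 ± 0.11, adjusted p = 0.0765). The difference between the ages in the fraction ratio was -1.29 ± 0.20 (adjusted p = 0.00941). It ranged from -1.36 to -1.19 when any 1 library was left out, and missed the threshold without P1 GFP+ replicate 1, P1 GFP+ replicate 2 or P6 GFP- replicate 1. Without P6 GFP- replicate 1 or 2 the P6 difference between fractions kept its size (1.08 and 0.94) with adjusted p of 0.0871 and 0.129.

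*Itgb1*, the beta subunit of most laminin and collagen receptors, was at 378 and 389 CPM in P1 GFP+, 363 and 420.3 in P6 GFP+, 516 and 485 in P1 GFP- and 624 and 532 in P6 GFP- libraries. It made up 55.5% to 65.8% of the beta subunit level in every library and was called in no comparison, with an adjusted p of 0.05 at P1 (log2 -0.28 ± 0.10). *Itgb4*, the beta subunit of hemidesmosomes, was at 42.3 and 44.6 CPM in P1 GFP+, 19.9 and 25.1 in P6 GFP+, 30.9 and 38.7 in P1 GFP- and 20.2 and 22.8 in P6 GFP- libraries. It was little higher in GFP+ cells at P1 (log2 0.42 ± 0.13, adjusted p = 0.0331), a call lost under several alternatives, and fell with age in GFP+ cells (log2 -0.86 ± 0.15, adjusted p = 0.022). *Itga3*, which pairs with *Itgb1* in epithelia, was at 28.1 and 30.8 CPM in P1 GFP+, 44.4 and 47.0 in P6 GFP+, 19.2 and 30.6 in P1 GFP- and 22.9 and 21.5 in P6 GFP- libraries. The fractions overlapped at P1 and not at P6, when *Itga3* was 2.05-fold higher in GFP+ cells (log2 1.03 ± 0.15, adjusted p = 0.00703), and it rose in GFP+ cells with age (log2 0.73 ± 0.13, adjusted p = 0.0197). The difference between the ages in the fraction ratio of *Itga3* did not pass the test (log2 0.68 ± 0.29, adjusted p = 0.233). *Itga7*, the laminin receptor subunit of muscle, was lower in GFP+ cells at both ages, at 2.25 to 11.1 CPM in GFP+ and 21.3 to 31.7 CPM in GFP- libraries, and rose in GFP+ cells (log2 1.73 ± 0.39, adjusted p = 0.0366), by 1.22 without P6 GFP+ replicate 2.

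The 4 collagen-binding alpha subunits *Itga1*, *Itga2*, *Itga10* and *Itga11*, all partners of *Itgb1*, were lower in GFP+ cells at both ages. The P6 calls of *Itga1* and *Itga2* were lost with library totals and without either P6 GFP- library. Those of *Itga10* and *Itga11* were lost without P6 GFP- replicate 2. *Itga1* was at 2.10 and 1.33 CPM in P1 GFP+, 65.6 and 45.0 in P1 GFP-, 3.10 and 15.1 in P6 GFP+ and 46.2 and 45.9 in P6 GFP- libraries. At P1 it had the largest difference of any member, 28.9-fold (log2 -4.85 ± 0.30, adjusted p = 7.28e-05). *Itga10*, the collagen receptor subunit of cartilage (chr3:96449507-96468442, plus strand), was at 4.34 and 4.18 CPM in P1 GFP+, 84.7 and 87.4 in P1 GFP-, 12.2 and 52.0 in P6 GFP+ and 261 and 324 in P6 GFP- libraries. Each fraction was higher at P6 than at P1 without overlap, and the fractions did not overlap at either age. *Itga10* was 18.7-fold lower in GFP+ cells at P1 (log2 -4.22 ± 0.11, adjusted p = 9.99e-06) and 9.16-fold lower at P6 (log2 -3.20 ± 0.65, adjusted p = 0.0165). It rose 3.87-fold in GFP- cells (log2 1.95 ± 0.13, adjusted p = 0.000368), where it came to lead the alpha subunits with 25.2% and 30.5% of their level per exon length. In GFP+ cells it rose 7.96-fold (log2 2.99 ± 0.68, adjusted p = 0.0378), or by 1.64 on the log2 scale without P6 GFP+ replicate 2 and by 2.94 without P1 GFP+ replicate 2 (adjusted p = 0.0964). The counts of *Itga10* are uncertain, since 33.5% of its exon bases are not its own alone in the annotation. *Itga11*, a collagen receptor subunit of fibroblasts, was at 2.77 and 2.33 CPM in P1 GFP+, 45.6 and 41.5 in P1 GFP-, 1.46 and 8.27 in P6 GFP+ and 49.7 and 52.7 in P6 GFP- libraries, 10.3-fold lower in GFP+ cells at P6 (log2 -3.36 ± 0.68, adjusted p = 0.0162). *Itga2* was at 1.52 to 4.15 CPM in GFP+ and 8.09 to 13.1 CPM in GFP- libraries.

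The 8 RGD-binding integrin subunits form receptors of fibronectin, vitronectin and the latent form of TGF-beta. With age in GFP+ cells, 2 rose (25.0%, against 12.1% of all genes) and 2 fell (25.0%, against 8.31%). *Itga8*, which pairs with *Itgb1* and binds nephronectin (chr2:12028259-12223547, minus strand), was at 567 and 466 CPM in P1 GFP+, 372 and 468 in P1 GFP-, 59.8 and 101 in P6 GFP+ and 274 and 250.4 in P6 GFP- libraries. The fractions overlapped at P1, and at P6 both GFP+ libraries were below both GFP- libraries. *Itga8* fell 6.05-fold in GFP+ cells (log2 -2.60 ± 0.28, adjusted p = 0.00646) and by less in GFP- cells, where the test was not passed (log2 -0.49 ± 0.15, adjusted p = 0.0644). At P6 it was 3.28-fold lower in GFP+ cells (log2 -1.71 ± 0.27, adjusted p = 0.00829), and the fraction ratio differed between the ages by -2.13 ± 0.35 (adjusted p = 0.0121). The difference between the ages missed the threshold without P1 GFP+ replicate 1 (adjusted p = 0.0653), P6 GFP- replicate 1 (adjusted p = 0.0672) or P6 GFP- replicate 2 (adjusted p = 0.0538), at -1.97, -2.04 and -2.24.

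*Itgb3*, the beta subunit of the vitronectin receptor and of the platelet fibrinogen receptor (chr11:104469370-104531790, plus strand), took the opposite course. It was at 8.16 and 6.87 CPM in P1 GFP+, 64.8 and 60.4 in P1 GFP-, 32.7 and 46.1 in P6 GFP+ and 39.5 and 41.3 in P6 GFP- libraries. At P1 it was 7.68-fold lower in GFP+ cells (log2 -2.94 ± 0.14, adjusted p = 3.03e-05), and at P6 the fractions overlapped (log2 -0.04 ± 0.20, adjusted p = 0.885). *Itgb3* rose 5.55-fold in GFP+ cells (log2 2.47 ± 0.22, adjusted p = 0.00419), by 2.23 without P6 GFP+ replicate 2. In GFP- cells it fell by 0.44 ± 0.11 on the log2 scale (adjusted p = 0.0323), a call lost under several alternatives. The fraction ratio differed between the ages by 2.89 ± 0.25 (adjusted p = 0.00115). *Itga2b*, its alpha partner on platelets, was at 1.70 and 1.73 CPM in P1 GFP+, 3.55 and 4.99 in P6 GFP+, 5.04 and 6.47 in P1 GFP- and 3.86 and 4.37 in P6 GFP- libraries. It was 3.12-fold lower in GFP+ cells at P1 (log2 -1.64 ± 0.24, adjusted p = 0.00215) and rose in GFP+ cells (log2 1.41 ± 0.30, adjusted p = 0.0326), and the fraction ratio differed between the ages by 1.68 ± 0.37 (adjusted p = 0.0364). The last call was lost without any 1 of 5 libraries and with a replicate block. The summed level of 6 megakaryocyte and platelet markers was 8.05 and 8.24 CPM in P1 GFP+ and 4.90 and 8.70 in P6 GFP+ libraries. It was 14.3 to 21.0 CPM in GFP- libraries, and 1 of the 3 tested rose in GFP+ cells. Most of the sum in GFP+ libraries came from *Gp1ba*, at 6.87 and 7.23 CPM at P1 and 2.65 and 4.59 at P6. *Pf4* went the other way, at 0.916 and 0.683 CPM in P1 GFP+ and 1.35 and 2.38 in P6 GFP+ libraries. *Gp1bb* was also higher in both P6 GFP+ libraries than in both P1 GFP+ libraries, so the sum does not show the course of each marker.

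*Itgav*, the shared alpha partner of *Itgb3*, *Itgb5*, *Itgb6* and *Itgb8*, was at 118 and 116 CPM in P1 GFP+, 132 and 163 in P6 GFP+, 194 and 173 in P1 GFP- and 337 and 295 in P6 GFP- libraries. It was lower in GFP+ cells at P1 (log2 -0.54 ± 0.10, adjusted p = 0.00497) and at P6 (log2 -1.11 ± 0.19, adjusted p = 0.0106), and it rose in GFP- cells (log2 0.98 ± 0.13, adjusted p = 0.00428). *Itgb5*, a vitronectin receptor subunit and second among the beta subunits in every library, was at 166 and 188 CPM in P1 GFP+, 93.7 and 114 in P6 GFP+, 143 and 138 in P1 GFP- and 173 and 156 in P6 GFP- libraries. The GFP+ libraries were thus above the GFP- libraries at P1 and below them at P6. The difference was 0.43 ± 0.09 at P1 (adjusted p = 0.00907), a call lost without P1 GFP+ replicate 2. At P6 it was -0.67 ± 0.17 (adjusted p = 0.0343), a call lost without either P6 GFP- library. *Itgb5* fell in GFP+ cells (log2 -0.67 ± 0.14, adjusted p = 0.03), a call lost without either P1 GFP+ library. The fraction ratio differed between the ages by -1.11 ± 0.20 (adjusted p = 0.0166). The last value ranged from -1.24 to -0.997 when any 1 library was left out and missed the threshold in 4 of these 8 fits. *Itgb6*, an epithelial subunit that activates TGF-beta, was at 24.1 and 22.5 CPM in P1 GFP+, 19.9 and 18.7 in P6 GFP+, 6.52 and 18.2 in P1 GFP- and 8.85 and 4.74 in P6 GFP- libraries. The fractions did not overlap, and the test was passed at P6 (log2 1.49 ± 0.34, adjusted p = 0.0224) and not at P1 (log2 1.01 ± 0.44, adjusted p = 0.0989). *Itgb8* was at 105 to 201 CPM and lower in GFP+ cells at P1 (log2 -0.72 ± 0.10, adjusted p = 0.00175). *Itga5*, the fibronectin receptor subunit, was at 7.09 and 7.15 CPM in P1 GFP+, 7.15 and 23.3 in P6 GFP+, 69.2 and 72.6 in P1 GFP- and 63.1 and 56.5 in P6 GFP- libraries, low in all GFP+ libraries.

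*Itga4* and *Itga9* bind the cell surface protein VCAM1 and matrix proteins, and they lay on opposite sides at P1. *Itga4* was at 4.04 and 3.66 CPM in P1 GFP+, 83.0 and 54.9 in P1 GFP-, 2.70 and 12.5 in P6 GFP+ and 31.7 and 36.7 in P6 GFP- libraries, 16.5-fold lower in GFP+ cells at P1 (log2 -4.05 ± 0.24, adjusted p = 6.64e-05). It fell in GFP- cells (log2 -0.82 ± 0.20, adjusted p = 0.0317), a call lost in the fit of all 8 libraries and without either P6 GFP- library. *Itga9* (chr9:118515808-118810121, plus strand) was at 88.8 and 88.3 CPM in P1 GFP+, 50.5 and 57.4 in P6 GFP+, 39.0 and 39.1 in P1 GFP- and 83.2 and 82.3 in P6 GFP- libraries. The fractions changed places between the ages, with close replicates. *Itga9* was 2.44-fold higher in GFP+ cells at P1 (log2 1.29 ± 0.08, adjusted p = 8.38e-05) and 1.54-fold lower at P6 (log2 -0.62 ± 0.15, adjusted p = 0.0254). The P6 call was lost without either P6 GFP- library. *Itga9* fell in GFP+ cells (log2 -0.62 ± 0.12, adjusted p = 0.0232), a call lost without either P1 GFP+ library. In GFP- cells it rose 2.42-fold (log2 1.28 ± 0.10, adjusted p = 0.000773). The fraction ratio differed between the ages by -1.92 ± 0.16 (adjusted p = 0.00103). That difference kept its direction and call when any 1 library outside P6 GFP+ was left out, as it did for *Lama1* and *Itgb3*. Calls in the fits without a P6 GFP+ library are not read, since those fits drop 1 of the pair that differed most.

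**Figure D4:**
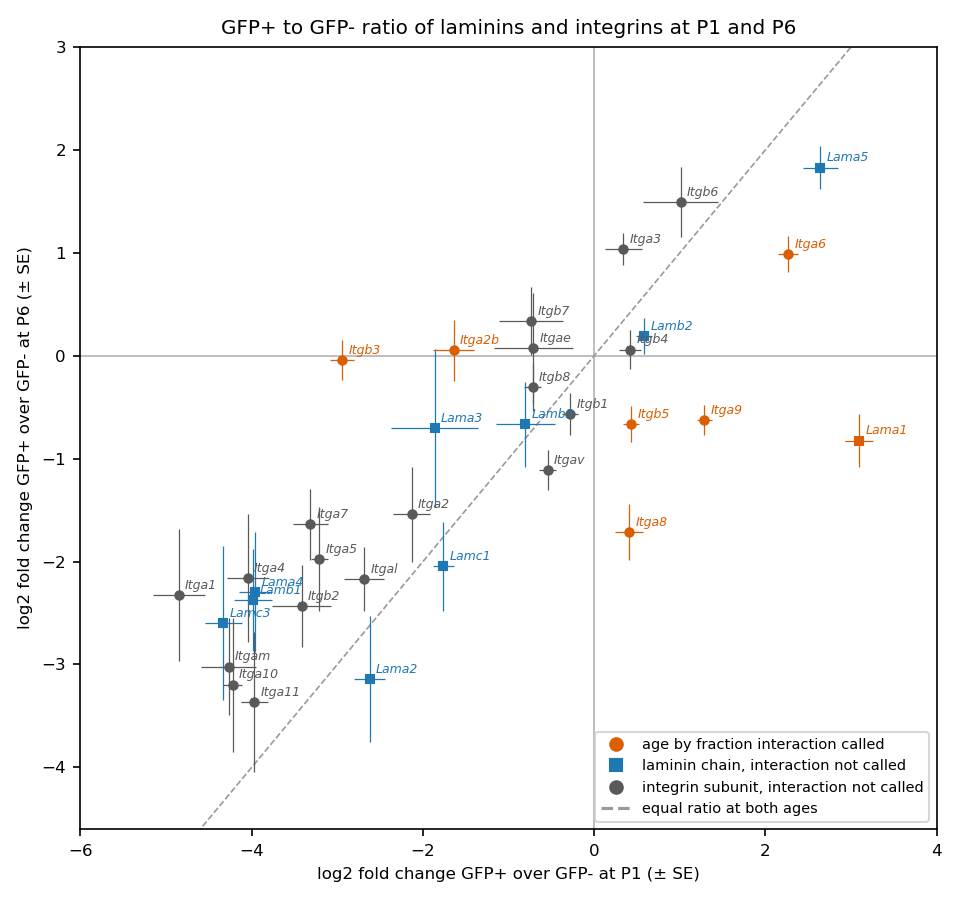
Log2 ratio of GFP+ to GFP- cells at P1 (horizontal) and at P6 (vertical) for 34 of the 35 genes tested at both ages, with standard errors. The dashed line is an equal ratio at both ages; the 7 genes in orange had a called difference between the ages, with *Lama1*, *Itga6*, *Itga8*, *Itga9* and *Itgb5* below the line and *Itgb3* and *Itga2b* above it.

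The leukocyte integrins were low in all libraries, and 3 of the 5 tested at P1 and 3 of the 6 tested at P6 were lower in GFP+ cells, namely *Itgam*, *Itgb2* and *Itgal*. *Itgam*, the alpha subunit of macrophages and neutrophils, was at 0.284 and 0.281 CPM in P1 GFP+, 6.76 and 5.15 in P1 GFP-, 0.957 and 2.78 in P6 GFP+ and 16.5 and 14.7 in P6 GFP- libraries. Its beta partner *Itgb2* was at 0.218 and 0.241 CPM in P1 GFP+, 2.88 and 2.43 in P1 GFP-, 0.675 and 1.44 in P6 GFP+ and 5.93 and 5.79 in P6 GFP- libraries. Both were higher at P6 than at P1 in each fraction without overlap of the replicates. *Itgam* was 19.3-fold lower in GFP+ cells at P1 (log2 -4.27 ± 0.32, adjusted p = 0.000143) and 8.12-fold lower at P6 (log2 -3.02 ± 0.47, adjusted p = 0.00784), and *Itgb2* was 10.7-fold lower at P1 (log2 -3.42 ± 0.34, adjusted p = 0.000464) and 5.40-fold lower at P6 (log2 -2.43 ± 0.40, adjusted p = 0.0092). In GFP- cells *Itgam* rose by 1.58 ± 0.20 (adjusted p = 0.00341) and *Itgb2* by 1.34 ± 0.23 (adjusted p = 0.0099). In GFP+ cells *Itgam* rose by 2.82 ± 0.61 (adjusted p = 0.0343), or 1.86 without P6 GFP+ replicate 2, and *Itgb2* by 2.31 ± 0.52 (adjusted p = 0.038), or 1.67 without that library (adjusted p = 0.0659). The 10 leukocyte markers moved with them. Their summed level was 22.8 and 19.5 CPM in P1 GFP+, 59.5 and 107 in P6 GFP+, 289 and 225 in P1 GFP- and 604 and 531 in P6 GFP- libraries. In each fraction 8 of 10 rose (80.0%, against 12.1% of all genes in GFP+ and 11.3% in GFP- cells). *Itgal*, the alpha subunit of lymphocytes, was at 0.924 to 2.71 CPM in GFP+ and 6.37 to 10.8 CPM in GFP- libraries. *Itgae* and *Itgb7*, a pair of lymphocytes in epithelia, were at 0.234 to 1.24 and 0.633 to 1.71 CPM and were called in no comparison. *Itgax* was at most 0.292 CPM. *Itgad* was listed at 0 in both P1 GFP+ libraries and in P6 GFP+ replicate 1, which allows up to 0.0655, 0.121 and 0.169 CPM at 3 counts, and was at most 0.185 CPM elsewhere.

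**Figure D5:**
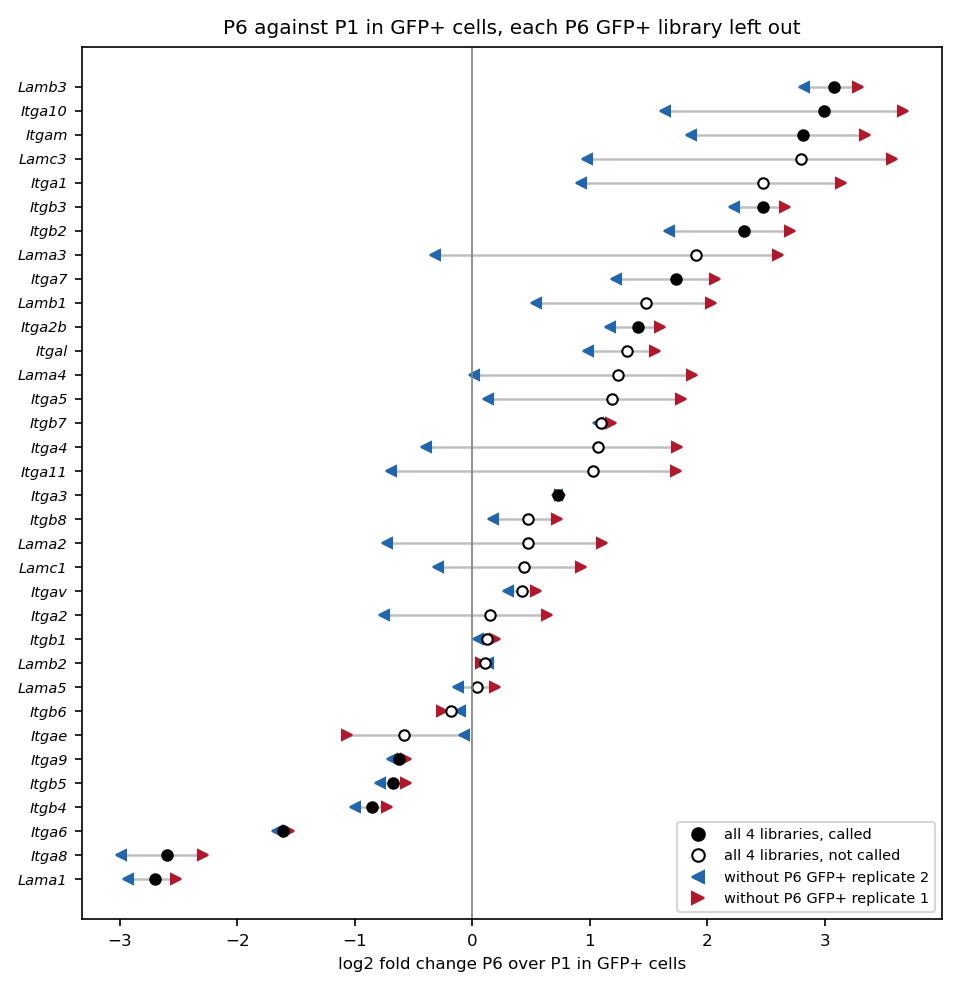
Log2 change from P1 to P6 in GFP+ cells for 34 of the 35 genes tested, with all 4 libraries (circles, filled where called) and with either P6 GFP+ library left out (triangles). The 6 genes that fell kept their sign in all 3 fits, while *Lama2*, *Lama3*, *Lama5*, *Lamc1*, *Itga2*, *Itga4* and *Itga11* did not.

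The change with age in GFP+ cells depended on the library used for many genes that were high in GFP- cells. P6 GFP+ replicate 2 was above replicate 1 by 6.31 times for *Lamc3*, 5.65 for *Itga11*, 4.88 for *Itga1*, 4.61 for *Itga4*, 4.26 for *Itga10*, 3.79 for *Lama4* and 3.72 for *Lama2*. The genes high in GFP+ cells differed far less, by 1.30 times for *Lama5*, 1.12 for *Itga6*, 1.06 for *Itga3* and 0.940 for *Itgb6*. A fit without 1 P6 GFP+ library takes its spread from the other group alone, which was P1 GFP+ or P6 GFP-. Over all genes the P6 GFP+ replicates differed more (chi-square per degree of freedom 58.0) than those of P1 GFP+ (15.1) and P6 GFP- (37.9). Calls kept or gained in such a fit can thus not show that a result is stable, and only its fold changes are read. Where a P1 GFP+ or P6 GFP- library was left out, the spread came from the P6 GFP+ pair and many calls were lost. Without P1 GFP+ replicate 2, the calls with age kept in GFP+ cells were those of *Lama1*, *Itga6*, *Itga8* and *Itgb3*. *Lama5*, *Lama2*, *Itga8* and *Itgam* were among the genes that kept their P6 call without P6 GFP- replicate 2.

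Genes of the wider pathway were read from lists of ligands, other laminin receptors and adhesion adaptors. Of 30 other ligands tested, among them type IV collagens, nidogens and fibronectin, 9 were higher (30.0%, against 25.5% of all genes) and 18 lower (60.0%, against 28.1%) in GFP+ cells at P1. At P6, 4 were higher (13.3%, against 15.5%) and 14 lower (46.7%, against 17.9%). With age 7 rose (23.3%, against 12.1%) and 6 fell (20.0%, against 8.31%) in GFP+ cells, and 13 rose (43.3%, against 11.3%) and 2 fell (6.67%, against 7.87%) in GFP- cells. *Egfl6*, a secreted RGD protein that binds *Itga8*, fell with age in GFP+ cells, as *Itga8* did. It was at 189 and 200.0 CPM in P1 GFP+, 41.8 and 38.8 in P6 GFP+, 10.7 and 13.7 in P1 GFP- and 7.12 and 4.65 in P6 GFP- libraries. The fall in GFP+ cells was 2.18 ± 0.13 on the log2 scale (adjusted p = 0.0024). *Npnt*, which encodes nephronectin, went the other way in GFP+ cells, at 74.1 and 58.2 CPM in the P1 and 159 and 286 in the P6 libraries. *Vtn*, which encodes vitronectin, the ligand of the receptors formed by *Itgav* with *Itgb3* and *Itgb5*, rose there as *Itgb3* did. It was at 1.96 and 2.13 CPM in P1 GFP+, 44.3 and 31.0 in P6 GFP+, 43.4 and 38.0 in P1 GFP- and 8.93 and 9.78 in P6 GFP- libraries, so that the fractions changed places. *Vtn* rose in GFP+ cells (log2 4.30 ± 0.27, adjusted p = 0.00263) and fell in GFP- cells (log2 -1.93 ± 0.14, adjusted p = 0.000528), and its fraction ratio differed between the ages by 6.20 ± 0.31 (adjusted p = 0.000193). *Col4a3* and *Col4a4*, chains of the mature type IV collagen network, were higher in GFP+ cells at P1 (log2 4.64 ± 0.20 and 3.98 ± 0.17) and rose in GFP- cells (log2 5.78 ± 0.23 and 4.05 ± 0.14), and their fraction ratios differed between the ages by -5.21 ± 0.59 (adjusted p = 0.00325) and -4.96 ± 0.60 (adjusted p = 0.0038). *Thbs1*, a matrix glycoprotein that binds integrins, fell in GFP+ cells (log2 -2.38 ± 0.22, adjusted p = 0.00445).

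Among the 3 non-integrin laminin receptors *Bcam* stood out. It encodes a surface protein that binds the alpha chain of *Lama5*, and it was at 123 and 143 CPM in P1 GFP+, 1145 and 800.3 in P6 GFP+, 19.7 and 32.9 in P1 GFP- and 88.7 and 79.0 in P6 GFP- libraries. *Bcam* was higher in GFP+ cells at P1 (log2 2.44 ± 0.24, adjusted p = 0.000406) and at P6 (log2 3.53 ± 0.28, adjusted p = 0.00134), and it rose in GFP+ cells (log2 2.97 ± 0.25, adjusted p = 0.00362) and in GFP- cells (log2 1.86 ± 0.23, adjusted p = 0.00286). *Lama5*, by its values above, was level in GFP+ cells over the same days. *Dag1*, which encodes dystroglycan, differed little, at -0.32 ± 0.09 on the log2 scale at P1 (adjusted p = 0.0261).

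Of the 28 adhesion adaptors tested, which link integrins to actin and signalling, 6 were higher (21.4%, against 25.5% of all genes) and 12 lower (42.9%, against 28.1%) in GFP+ cells at P1, and 6 were higher (21.4%, against 15.5%) and 8 lower (28.6%, against 17.9%) at P6. With age 7 rose (25.0%) and 1 fell (3.57%) in each fraction, where of all genes 12.1% rose and 8.31% fell in the GFP+ fraction, and 11.3% rose and 7.87% fell in the GFP- one. *Nedd9*, a docking protein of focal adhesions, was higher in GFP+ cells at P1 (log2 2.81 ± 0.12, adjusted p = 2.35e-05) and at P6 (log2 2.59 ± 0.20, adjusted p = 0.00127). The tetraspanin *Cd9*, which associates with integrins at the membrane, was higher too (log2 2.07 ± 0.15 at P1 and 2.20 ± 0.26 at P6) and rose in both fractions (log2 1.59 ± 0.23 in GFP+ and 1.45 ± 0.16 in GFP- cells). *Lims2*, a partner of the integrin-linked kinase, was at 0.241 to 0.458 CPM in the P1 libraries and at 5.80 and 6.73 CPM in P6 GFP+ libraries, against 0.811 and 0.975 in P6 GFP- libraries (log2 4.17 ± 0.40 for the rise in GFP+ cells, adjusted p = 0.00493). *Parvg*, the parvin of blood cells, was lower in GFP+ cells at P1 (log2 -4.30 ± 0.31, adjusted p = 0.000131), as the leukocyte integrins were.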

How the data were processed

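The samples were 8 RNA-seq libraries of sorted cochlear cells, placed by their labels into 4 groups of 2 (GFP+ or GFP-, P1 or P6). The authors deposited raw counts per Ensembl gene with no normalization, made with TopHat (1.4.0 in the submitters' processing notes) on the mm9 (NCBIM37) genome and HTSeq. The counting mode is not given in the sources used here, and the library kit does not keep strand. Reads of *Lamc3*, *Itgb4*, *Itga8*, *Itgav* and *Itga4* and of their antisense partners, which share 5.07% to 8.04% of exon bases, could thus not be told apart.

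Reads not assigned to 1 gene are listed apart and were left out. Gene counts made up 64.7% to 76.2% of the listed reads, and a library had 17769024 to 67695039 of them, so that a gene at 0 counts could be at up to 0.0443 to 0.169 CPM (3 counts, counting error only).

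Comparisons used edgeR 4.0.16 in R 4.3.3 with filterByExpr (minimum count 10, minimum total 15), TMM, the quasi-likelihood test, two-sided, and Benjamini-Hochberg adjustment over all genes tested. The standard error is the size of the log2 fold change divided by the square root of F. The difference between the ages in the fraction ratio is the interaction over all 8 libraries. The procedure was tested on simulated data. Of the 36536 genes, 34391 were found in the NCBIM37 annotation, the source of symbols, positions and exon lengths. Full statistics were given for called genes of at least 1 CPM, at most 6 in each direction where more than 12 were called, and for their partners. Of the other lists at most 3 genes per direction were named, except *Dag1* and *Npnt*, which were named after their values were seen. One gene of the set is in the counts but is not reported here by name. The genes and lists were chosen with earlier results of these data known. The main tests did not pair libraries by replicate number. The correlation of replicate differences between groups was -0.276 to 0.0839. With 2 libraries a group, this cannot exclude that GFP+ and GFP- libraries came from the same cochleas.

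Alternatives were DESeq2's size factors, library totals, no filter, the DESeq2 test (1.42.0), the study's criteria (p and adjusted p below 0.01 and fold change above 4), a fit of all 8 libraries, a block on the replicate number (replicate block) and leaving out each library. A crossed block was chosen after seeing the data. Figures were drawn with Python 3.11.15 and matplotlib 3.10.9.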

Additional observations from a re-analysis of the deposited data

Results flagged for a closer look

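For 7 genes the ratio of GFP+ to GFP- cells differed between the ages by the test of that difference over all 8 libraries (edgeR's quasi-likelihood test, adjusted over all genes). On the log2 scale, as the P6 ratio less the P1 ratio, the difference was -3.93 for *Lama1*, -2.13 for *Itga8*, -1.92 for *Itga9*, -1.29 for *Itga6* and -1.11 for *Itgb5*, and it was 2.89 for *Itgb3* and 1.68 for *Itga2b*. Each kept its direction without either P6 GFP+ library. Call and direction were kept by each with DESeq2's size factors, with library totals, without the filter and with the DESeq2 test. Those of *Lama1*, *Itga9* and *Itgb3* also kept theirs in each fit without 1 library outside P6 GFP+. The replicates of the compared groups did not overlap for *Lama1*, *Itga6*, *Itgb5* and *Itga9* at either age, and they overlapped at P1 for *Itga8* and at P6 for *Itgb3* and *Itga2b*.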

How the results depend on the processing

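No called gene changed direction under any alternative. Under the study's criteria of p and adjusted p below 0.01 and a fold change above 4, 4 genes were higher in GFP+ cells at P1, 0 were higher and 3 lower at P6, 2 rose and 2 fell in GFP+ cells, 1 rose and 0 fell in GFP- cells, and the fraction ratio rose for 1 and fell for 1. Over all genes these criteria passed 3331 genes at P1, 1459 at P6, 441 in GFP+ cells with age, 350 in GFP- cells with age and 242 for the interaction of age and fraction. Without the filter on low counts 16 genes rose in GFP+ cells, 7 fell in GFP- cells and the fraction ratio rose for 10, with 5854, 5444 and 3201 of all genes called in these comparisons. For GFP- cells with age, the fit of all 8 libraries called 9 higher and 0 lower, library totals called 7 lower and the DESeq2 test 6 lower. The DESeq2 test called 5 members higher for the interaction, with 2289 of all genes.

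The replicate block changed no call of the fractions at either age. With age it lost *Itgb2* and *Itga2b* in GFP+ cells and *Itgb3*, *Itgb5*, *Itgal* and *Itga11* in GFP- cells, where 1 gene was left lower, and for the interaction it lost *Itga2b*, leaving 1 higher, with 750 of all genes called. The replicate differences of the P1 and P6 GFP- groups correlated at -0.276, and with crossed replicate numbers, chosen after seeing the data, 7 members fell in GFP- cells and 5481 of all genes were called.

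With 1 library left out, where the lone library of a group is assumed to vary like the other group, counts ranged as follows. At P1 6 to 11 genes were higher and 18 to 23 lower in GFP+ cells (6412 to 11647 of all genes), and at P6 2 to 5 were higher and 3 to 23 lower (1940 to 9806). With age 1 to 22 rose and 3 to 8 fell in GFP+ cells (680 to 9491), and 6 to 14 rose and 0 to 4 fell in GFP- cells (1140 to 4867). For the interaction 1 to 13 were higher and 2 to 9 lower (337 to 2991). With 2 libraries a group, such counts rest on few degrees of freedom, and genes under about 1 CPM are known with little precision.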
